A study of Rattus norvegicus with 13 samples.

Results

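Transcripts of heat shock proteins and other molecular chaperones were measured in rat frontal cortex (Sprague-Dawley, male) 1 month after brain trauma or a sham operation. The set was chosen by name: every gene whose array name began with Hspa, Hspb, Hspd, Hspe, Hsph, Hsp90, Dnaja, Dnajb, Dnajc or Cct followed by a digit. These were 81 of the 26269 gene names on the array, read by 101 probes. A probe was kept when its signal was well above the local background on all arrays of at least 1 group, which left 74 chaperone genes with 92 probes among 17251 genes tested. The rule took names literally, so it also took Hspbp1 and Hspbap1, which bind chaperones, Hspb11, whose current symbol is Ift25, and 3 sequences named as Hspd1 pseudogenes. It did not take Tcp1, whose name begins otherwise. Nor did it take Hspa1a, a name that no probe carried, or Dnajc19, which carries another name on the array.

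The study used a pair of rat models of head trauma, head acceleration rotational injury and lateral fluid percussion injury, and asked how gene expression stood in the secondary phase after the injury. Its groups were rotational sham (n = 3), rotational trauma (n = 3), percussion sham (n = 4) and percussion trauma (n = 3), with no genetic change in any of them. The sham animals had the anaesthesia and the whole operation of their own model but not the trauma itself, and the ages of the rats were not given in the labels. Samples of a group were numbered as replicates with nothing more said of the animals, so p-values here measure the spread between these samples.

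Each sample was hybridised to 1 single-colour array. Between 67.0% and 74.1% of the spots of an array were well above background and none were saturated. The number of arrays limits the precision. All 8 neuronal marker genes chosen as a check of the tissue were above background on all 13 arrays, as were 6 of 7 astrocyte and 8 of 8 oligodendrocyte and myelin markers. The rotational arrays lay on 1 slide and the percussion arrays on another, so the model and the slide cannot be told apart. Within each slide sham and trauma lay in different columns, in the opposite order on the other slide. Within a model, trauma and column therefore cannot be told apart. A probe level is given as a scaled log2 signal, the log2 of the processed intensity minus the 75th percentile of that array, so that 0 marks the upper quartile of the array. A difference of 1 on this scale is a 2-fold difference.

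Chaperones hold unfolded proteins and help them to fold. Members of the Hsp70 family bind short exposed stretches of a protein in a cycle driven by ATP, J proteins (the Dnaja, Dnajb and Dnajc genes) deliver the client and start that cycle, and nucleotide exchange factors such as the Hsp110 proteins release it. Hsp90 proteins act later, on kinases, steroid receptors and other nearly folded clients. Chaperonins are barrels that enclose a protein while it folds, Hspd1 with its lid Hspe1 in mitochondria and the Cct subunits in the cytosol, where actin and tubulin are their main clients. Small heat shock proteins need no ATP and hold aggregating proteins in solution. Under heat or other proteotoxic stress the factor Hsf1 induces many of these genes, while unfolded protein in the endoplasmic reticulum induces the chaperones of that compartment.

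None of the 74 chaperone genes passed the test after rotational trauma (limma, Benjamini-Hochberg adjusted p over all genes, smallest 0.701), where 0.0116% of all genes passed. None passed after percussion trauma either (smallest adjusted p 0.202), where the share over all genes was 0%. At an unadjusted p under 0.05 there was 1 chaperone gene after rotational trauma, against 7.00% of all genes, and 6 after percussion trauma, against 11.5%. Each of these was higher after trauma, a direction taken by 2.70% of all genes in the rotational and 8.69% in the percussion comparison. The median difference over the 74 genes was −0.03 for rotational trauma minus its sham and 0.02 for percussion trauma minus its sham, next to −0.03 and 0.03 over all genes. The intervals bound how large a change these arrays could have missed. The 95% interval lay within 1.5-fold of no change for 68 of the 74 genes (91.9%) in the rotational model and for 69 (93.2%) in the percussion model, against 73.9% and 74.5% of all genes. The genes with wider intervals were Cct8l1, Dnajc22, Hspb1, Hspb3 and Hspb9 in both models, and Dnajc7 in the rotational model.

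**Figure D1:**
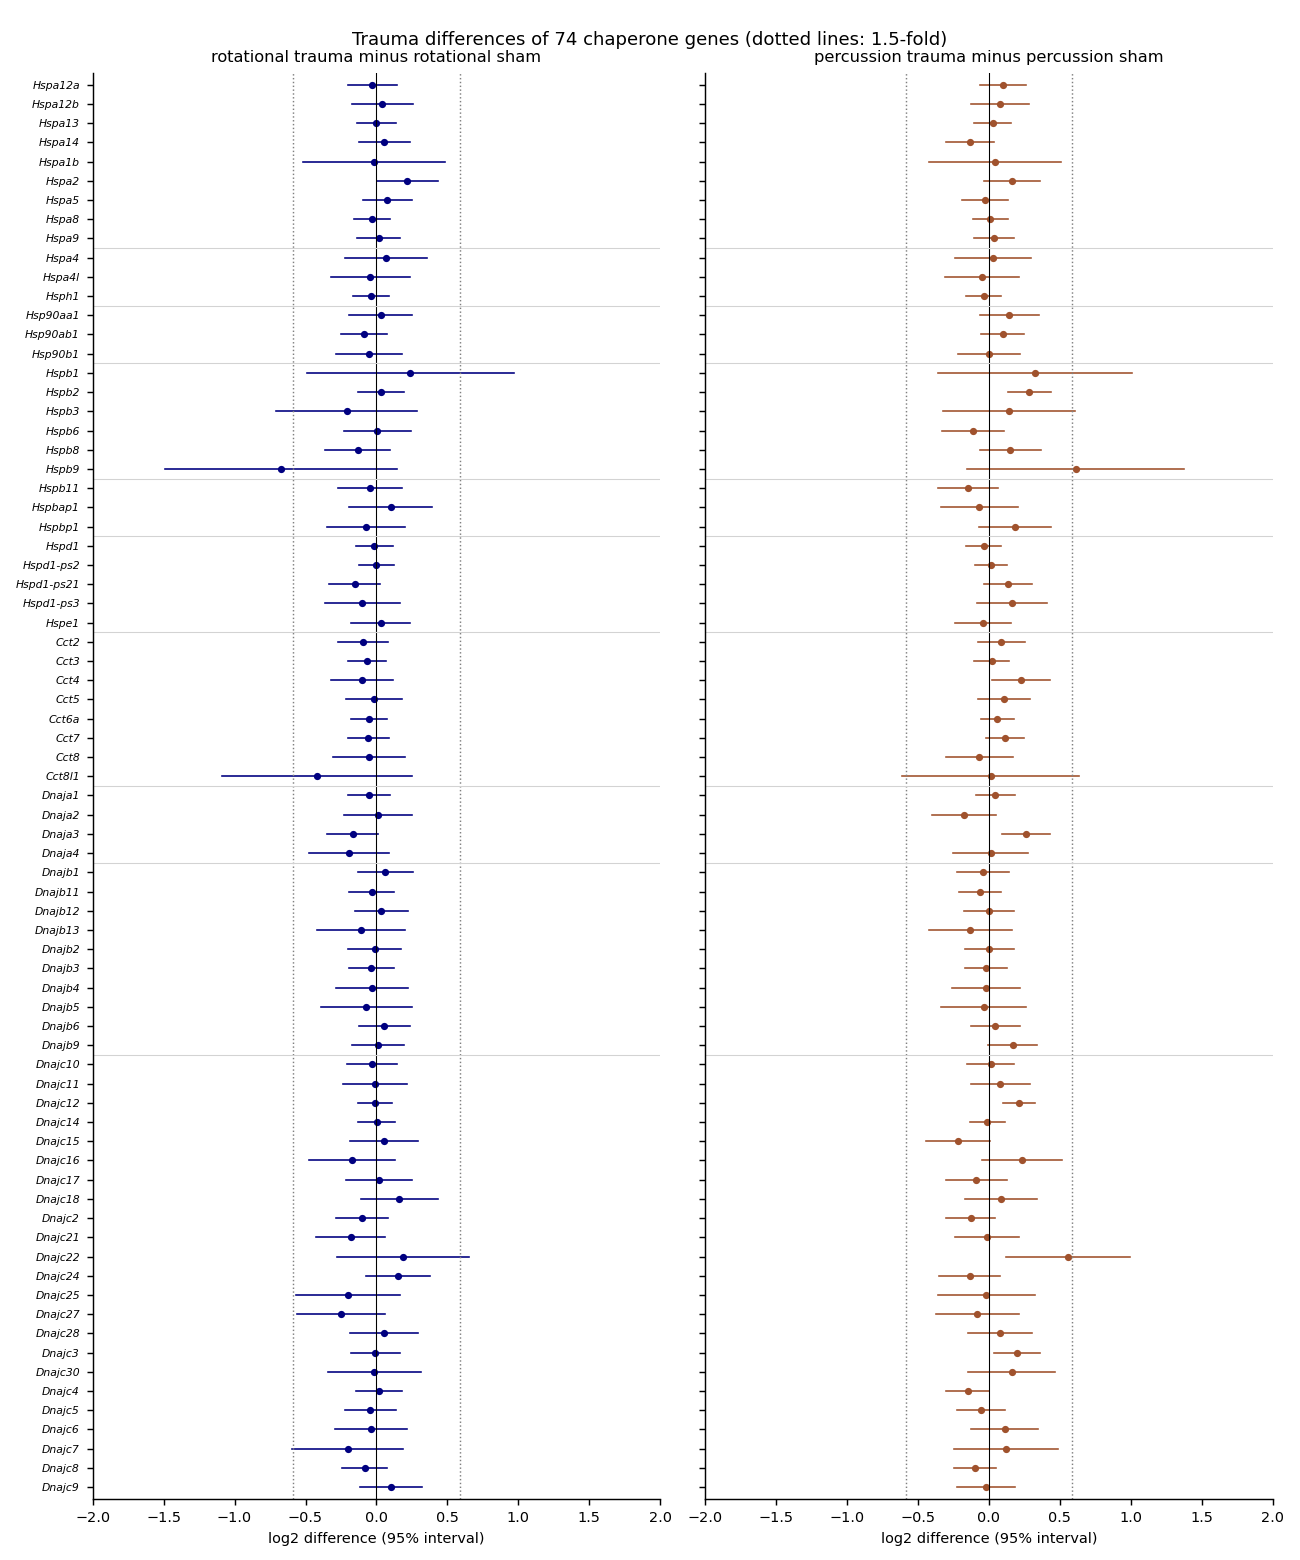
Log2 difference between trauma and its own sham (horizontal axis) for each of the 74 chaperone genes (vertical axis), in the rotational and the percussion model; points are limma estimates, lines their 95% intervals, and dotted lines mark 1.5-fold. Most intervals lie inside the dotted lines. The points of Hspb9 and Cct8l1 have no sure size, since neither probe was well above background on any rotational trauma array.

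Spread among arrays of 1 group was small for most of these genes. The median within-group SD over the 74 genes was 0.12, against 0.15 over all genes, with the widest in Hspb9 (0.50), Hspb1 (0.45) and Cct8l1 (0.41). Hspa8, the constitutive cytosolic Hsp70 that also strips clathrin from vesicles, read 6.55, 6.57 and 6.59 in the rotational shams, 6.58, 6.52 and 6.52 after rotational trauma, 6.50, 6.60, 6.45 and 6.53 in the percussion shams, and 6.56, 6.49 and 6.53 after percussion trauma. Sham and trauma arrays overlapped in both models. The difference was −0.03 ± 0.06 (SE) in the rotational model, an interval of 0.895- to 1.07-fold, and 0.01 ± 0.05 in the percussion model, 0.926- to 1.09-fold.

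Hspa5, the Hsp70 of the endoplasmic reticulum known as BiP, read 3.07, 3.08 and 3.04 in the rotational shams and 3.24, 3.01 and 3.18 after rotational trauma. It read 3.00, 3.05, 3.01 and 3.17 in the percussion shams and 3.11, 2.94 and 3.04 after percussion trauma. Again the groups overlapped, with differences of 0.08 ± 0.08 (SE) and −0.03 ± 0.07. Hspa9, the mitochondrial Hsp70, ranged from −0.68 to −0.43 over the 13 arrays and differed by 0.01 and 0.03.

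Hspa1b, the stress-inducible Hsp70, had a wider spread. It read −2.99, −3.20 and −3.34 in the rotational shams, −3.40, −3.39 and −2.78 after rotational trauma, −2.87, −2.76, −3.20 and −2.89 in the percussion shams, and −2.40, −2.99 and −3.28 after percussion trauma. A single array lay highest in each trauma group, replicate 3 in the rotational and replicate 1 in the percussion model, and below every sham of the same model lay the other 2 trauma arrays in the rotational model and 1 in the percussion model. The differences were −0.02 ± 0.23 (SE) and 0.04 ± 0.21, with intervals of 0.70- to 1.40-fold and 0.744- to 1.42-fold. Hspa1a, the neighbouring inducible gene of nearly the same sequence, was not in the set, and the signal of both genes may be mixed.

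Hspa2, best known from the testis, was the chaperone gene with the smallest p after rotational trauma. Its probe (rn4 chr6:99002319-99002378, plus strand) read −1.64, −1.43 and −1.50 in the rotational shams and −1.33, −1.44 and −1.16 after trauma, so that 1 trauma array lay among the shams. The difference was 0.22 ± 0.10 (SE; unadjusted p = 0.0463, limma adjusted p = 0.701). In the percussion model all 3 trauma arrays, at −1.83, −1.83 and −1.82, lay above the 4 shams at −1.90, −2.18, −1.97 and −1.89, with a difference of 0.16 ± 0.09 (limma adjusted p = 0.521). The other Hsp70 genes kept were Hspa12a, Hspa12b, Hspa13 and Hspa14. On their brightest probes they lay between −0.03 and 0.06 in the rotational model and between −0.13 and 0.10 in the percussion model. The dimmer probe of Hspa12b gave −0.01 ± 0.19 (SE) and 0.46 ± 0.18, against 0.04 and 0.08 for the brighter probe. Of the Hsp110 genes, Hspa4 differed by 0.07 and 0.03, Hspa4l by −0.04 and −0.05, and Hsph1 by −0.04 and −0.04.

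**Figure D2:**
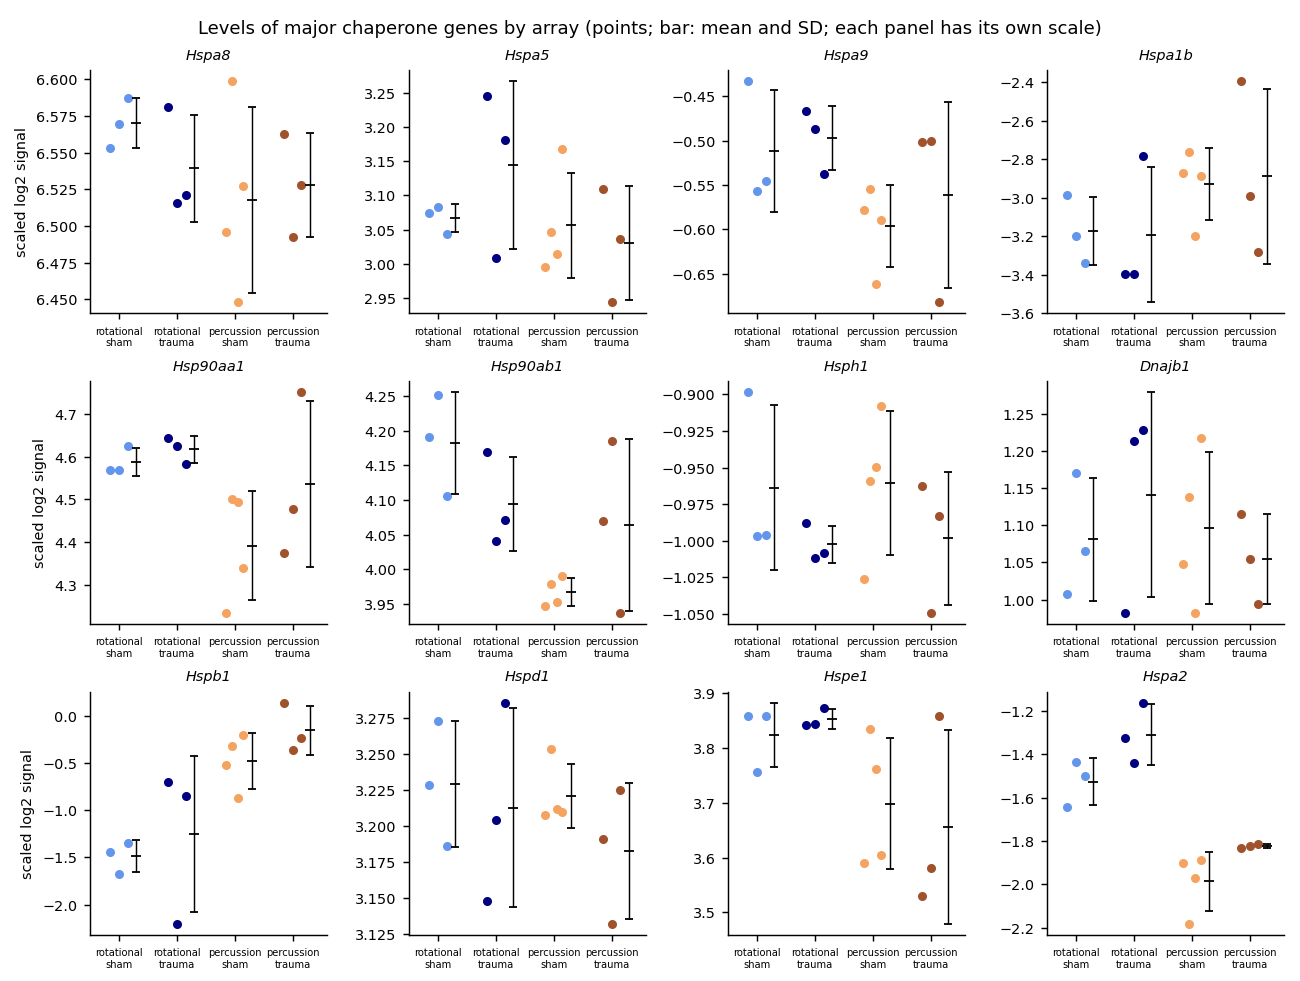
Scaled log2 signal (vertical axis, own scale in each panel) of 12 chaperone genes on each array (points) in the 4 groups, with the group mean and SD as bars. Sham and trauma arrays of a model overlap in most panels, and the Hspb1 panel shows both percussion groups above the rotational shams.

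Where genes of a stress response move together, their promoters often share a site for the same factor, so the promoters were searched for 2 classical elements. RefSeq promoters of the GRCr8 build, each of 300 bases with 250 before and 50 after the gene start, were matched for 63 of the 81 genes. The heat shock element was searched as 3 inverted repeats, GAANNTTCNNGAA or TTCNNGAANNTTC, which are each other's reverse complement. It occurred in 6 of these 63 promoters (9.52%) and in 267 of 33469 promoters overall (0.798%). The element of the endoplasmic reticulum stress response was searched as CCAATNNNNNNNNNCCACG on both strands, and occurred in 3 of the 63 promoters (4.76%) and in 22 of the 33469 (0.0657%). Shorter runs of 2 repeats, GAANNTTC or TTCNNGAA, are common, in 8.59% and 8.77% of all promoters. A match is a run of letters and not evidence that a factor was bound in these rats.

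The windows below show the matches that lie before the gene start, in capitals, each printed 5′ to 3′ on the strand of its gene. They were chosen by the match alone. Hspa1b, Hsp90aa1, Dnajb1 and Hspb1 are not among the genes with a match, and not every gene had a promoter to search.
Hspa8, chr8:50080287-50080327, plus strand, from 227 to 187 bases before the start: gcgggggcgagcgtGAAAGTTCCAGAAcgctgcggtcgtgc
Hspa8, chr8:50080445-50080485, plus strand, from 69 to 29 bases before: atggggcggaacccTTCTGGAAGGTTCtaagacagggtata
Hsph1, chr12:10427318-10427358, plus strand, from 50 to 10 bases before: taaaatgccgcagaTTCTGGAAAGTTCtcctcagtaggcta
Hspe1, chr9:64084248-64084293, plus strand, from 79 to 34 bases before: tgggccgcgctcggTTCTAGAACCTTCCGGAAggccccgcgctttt
Hspa5, chr3:38452959-38453005, plus strand, from 57 to 11 bases before: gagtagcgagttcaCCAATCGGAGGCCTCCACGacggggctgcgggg
Hsp90b1, chr7:23012437-23012483, minus strand, from 190 to 144 bases before: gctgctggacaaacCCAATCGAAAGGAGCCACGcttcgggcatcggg
Hsp90b1, chr7:23012333-23012379, minus strand, from 86 to 40 bases before: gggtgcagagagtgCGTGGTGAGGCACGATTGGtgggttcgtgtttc
Dnajc3, chr15:102432520-102432566, plus strand, from 147 to 101 bases before: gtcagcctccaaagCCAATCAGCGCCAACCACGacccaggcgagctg

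The Hspe1 window serves a pair of genes. Hspd1 is read from the opposite strand, and its own promoter holds the same bases, with the match beginning 242 bases before the Hspd1 start. In that window 2 matches overlap. The other genes with a heat shock element, Cct4 and Dnaja1, had it just after the gene start. The 6 genes with the heat shock element differed by −0.10 to 0.03 after rotational trauma and by −0.04 to 0.23 after percussion trauma, with none passing the test. The 3 genes with the endoplasmic reticulum element, Hspa5, Hsp90b1 and Dnajc3, differed by −0.05 to 0.08 and by −0.03 to 0.20, again with none passing.

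Hsp90aa1, the inducible cytosolic Hsp90, read 4.57, 4.57 and 4.63 in the rotational shams and 4.64, 4.62 and 4.58 after rotational trauma. Under percussion it read 4.23, 4.50, 4.49 and 4.34 in the shams and 4.38, 4.48 and 4.75 after trauma. Trauma arrays lay among the shams in both models, with differences of 0.03 ± 0.10 (SE) and 0.14 ± 0.09. The other kept probes of Hsp90aa1 gave −0.11 and 0.11 in the rotational and −0.01 and 0.02 in the percussion model. Hsp90ab1, the constitutive form, differed by −0.09 ± 0.07 and 0.10 ± 0.07. Hsp90b1, the form of the endoplasmic reticulum, had a mean of 2.26 ± 0.04 (SD, n = 3) in the rotational shams and 2.20 ± 0.08 (SD, n = 3) after trauma, and 2.06 ± 0.13 (SD, n = 4) and 2.06 ± 0.20 (SD, n = 3) in the percussion groups.

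Hspb1 (Hsp27, a small heat shock protein found in reactive astrocytes and vessel walls) varied widely from array to array. Its probe lies at rn4 chr12:21911494-21911664 on the minus strand. It read −1.44, −1.68 and −1.35 in the rotational shams and −0.70, −2.20 and −0.85 after rotational trauma, so that 2 trauma arrays lay above every sham and 1 lay below. The percussion arrays read −0.52, −0.32, −0.87 and −0.20 in the shams and 0.14, −0.37 and −0.24 after trauma, with 1 trauma array above the shams and 2 among them. The differences of 0.24 ± 0.33 (SE) and 0.32 ± 0.31 had intervals of 0.712- to 1.96-fold and 0.779- to 2.01-fold.

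Hspb2, a small heat shock protein of muscle (probe at rn4 chr8:54105825-54105884, minus strand), was next to the smallest p after percussion trauma. It read −1.57, −1.52, −1.63 and −1.67 in the percussion shams and −1.18, −1.39 and −1.36 after trauma. The groups did not overlap, and the difference was 0.28 ± 0.07 (SE; unadjusted p = 0.00156, limma adjusted p = 0.202). In the rotational model the shams at −1.19, −1.29 and −1.17 and the trauma arrays at −1.20, −1.22 and −1.13 overlapped. With no filter on dim probes the adjusted p of Hspb2 in the percussion model came to 0.0324, where 11.0% of all genes passed. Over all alternatives it ranged from 0.0324 to 0.403.

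Hspb8, which works with the co-chaperone Bag3 in selective autophagy, read −1.70, −1.72 and −1.78 in the rotational shams and −1.80, −1.97 and −1.82 after trauma. The trauma arrays all lay lower, by 0.13 ± 0.10 in the mean (SE; limma adjusted p = 0.893). In the percussion model 2 trauma arrays, at −1.92 and −1.95, lay above the shams at −2.25, −2.30, −2.16 and −2.17, and the other lay below them at −2.35. Hspb6 differed by 0.00 and −0.11 and Hspb3 by −0.21 and 0.14.

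Hspb9, a small heat shock protein known from the testis, was dim: its probe was well above background on all 3 rotational sham and all 3 percussion trauma arrays, on 1 of the 4 percussion shams and on none of the rotational trauma arrays. It read −5.59, −5.47 and −5.28 in the rotational shams and −5.81, −6.17 and −6.39 after trauma. Against the floor of the arrays where it was not above background, Hspb9 was at least 1.36-fold higher in the rotational shams than after rotational trauma (limma adjusted p = 0.783). In the percussion model it read −5.04, −6.63, −6.79 and −6.14 in the shams and −5.18, −5.74 and −5.69 after trauma, where percussion sham 1 lay above every trauma array. Cct8l1, a chaperonin-like gene whose current symbol is Cct8l2, was likewise above background on no rotational trauma array. It read −5.23, −6.16 and −5.36 in the rotational shams and −5.89, −5.60 and −6.53 after trauma, so the groups overlapped. Its rotational sham mean lay 1.24-fold above the floor of the trauma arrays, but rotational sham 2 lay below that floor. The measured difference had an interval of 0.470- to 1.19-fold (limma adjusted p = 0.877). Since these probes passed the filter only through groups in which they were bright, neither value supports a difference.

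J proteins made up the largest part of the set, with 37 genes kept. Dnajc12, a co-chaperone of the aromatic amino acid hydroxylases, had the smallest p after percussion trauma. Its probe (rn4 chr20:25751192-25751251, plus strand) read −2.14, −2.10, −2.08 and −2.10 in the percussion shams and −1.94, −1.88 and −1.86 after trauma. The groups lay well apart for their spread, by 0.21 ± 0.05 (SE; unadjusted p = 0.00151, limma adjusted p = 0.202), a 1.16-fold difference. The rotational groups overlapped, at −1.78, −1.81 and −1.76 in the shams and −1.84, −1.74 and −1.79 after trauma. With no filter on dim probes the adjusted p in the percussion model was 0.037, and over all alternatives it ranged from 0.037 to 0.391.

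Dnaja3, a mitochondrial J protein that works with Hspa9, had differences of opposite sign in the 2 models. Its brightest probe (rn4 chr10:10997909-10997968, minus strand) read −1.87, −1.86 and −1.95 in the rotational shams and −2.09, −1.98 and −2.12 after trauma, all 3 lower. Its percussion values were −2.26, −2.24, −2.27 and −2.19 in the shams and −2.09, −1.79 and −2.05 after trauma, all 3 higher. The differences were −0.17 ± 0.08 (SE; limma adjusted p = 0.733) and 0.26 ± 0.08 (limma adjusted p = 0.257). The other Dnaja3 probe gave −0.14 and 0.01.

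Dnajc3 (p58IPK), which restrains the kinase Eif2ak3 and carries the element printed above, read −1.30, −1.15, −1.14 and −1.15 in the percussion shams and −1.04, −1.08 and −0.84 after trauma. All 3 trauma arrays were higher, by 0.20 ± 0.07 (SE; limma adjusted p = 0.349), and in the rotational model the difference was −0.01 ± 0.08. Dnajc22 was dimmer and differed more, from −4.79, −4.87, −4.93 and −4.95 in the percussion shams to −4.25, −4.47 and −4.26 after trauma. That difference of 0.56 ± 0.20 (limma adjusted p = 0.329) stood beside a rotational trauma group that ran from −5.16 to −4.08, on both sides of its shams.

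**Figure D3:**
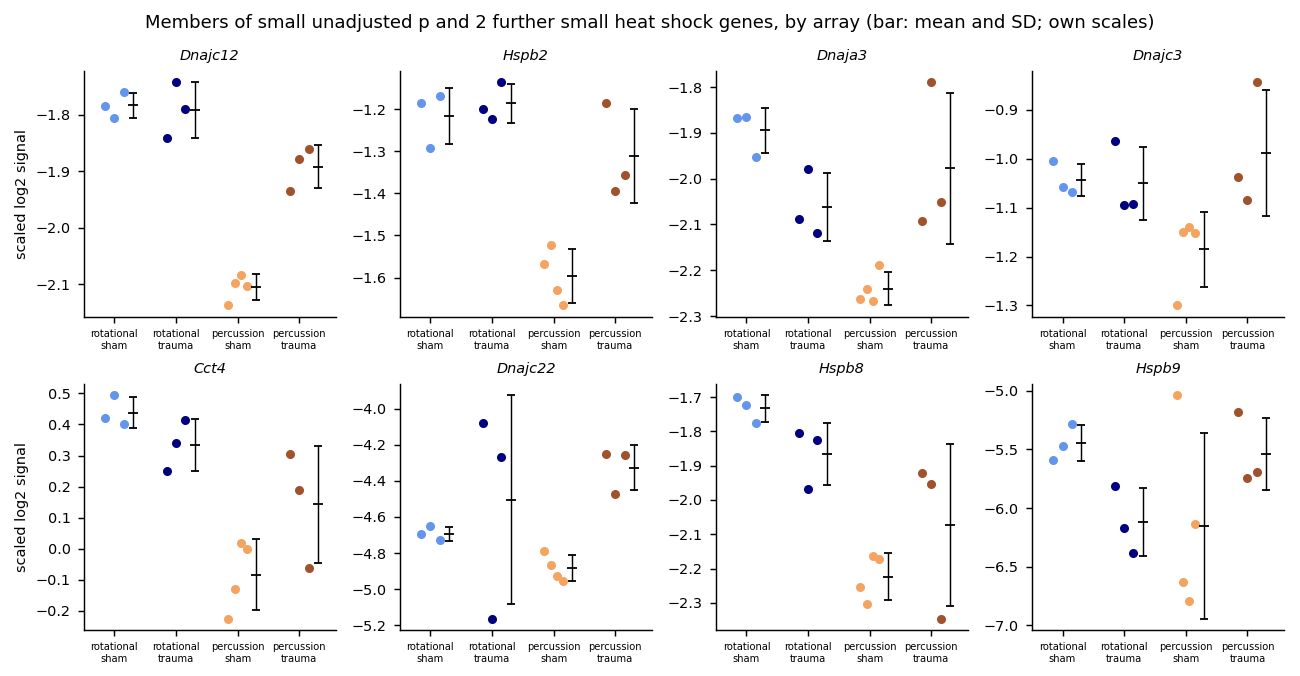
Scaled log2 signal (vertical axis, own scale in each panel) on each array (points) of the 6 chaperone genes with the smallest unadjusted p after percussion trauma and of Hspb8 and Hspb9, with the group mean and SD as bars. In the Dnajc12 panel the percussion trauma arrays (−1.94 to −1.86) lie between the percussion shams (−2.14 to −2.08) and the rotational groups.

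The J proteins best known from the heat shock and endoplasmic reticulum responses did not pass in either trauma comparison. Dnajb1, the main inducible partner of Hsp70, read 1.01, 1.17 and 1.07 in the rotational shams and 0.98, 1.21 and 1.23 after trauma, and 1.05, 1.14, 0.98 and 1.22 in the percussion shams and 1.12, 1.05 and 0.99 after trauma. The groups overlapped, with differences of 0.06 ± 0.09 (SE) and −0.04 ± 0.08. Dnajb11 and Dnajb9, J proteins of the endoplasmic reticulum, differed by −0.03 and 0.01 in the rotational model and by −0.06 and 0.17 in the percussion model (limma adjusted p for Dnajb9 = 0.447). Among J proteins of the synapse, Dnajc5 (cysteine string protein) differed by −0.04 and −0.05 and Dnajc6 (auxilin, which recruits Hspa8 to clathrin coats) by −0.04 and 0.11. Dnajc24 was the only chaperone gene whose 3 rotational trauma arrays, at −0.72, −0.81 and −0.90, all lay above the shams, at −0.98, −0.99 and −0.91. Dnajc7 read 0.92 and 0.98 on 2 rotational trauma arrays and 0.13 on the other, below the shams at 0.96, 0.80 and 0.88.

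The mitochondrial chaperonin Hspd1 read 3.23, 3.27 and 3.19 in the rotational shams, 3.15, 3.20 and 3.29 after rotational trauma, 3.21, 3.25, 3.21 and 3.21 in the percussion shams, and 3.19, 3.13 and 3.23 after percussion trauma. Sham and trauma arrays overlapped in both models. The differences were −0.02 ± 0.06 (SE) and −0.04 ± 0.06, and those of its lid Hspe1 were 0.03 ± 0.10 and −0.04 ± 0.09. The probe named for pseudogene Hspd1-ps2 shares a run of 23 bases with the Hspd1 probe, and those for Hspd1-ps21 and Hspd1-ps3 share at most 6, so the first may also read Hspd1 itself.

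The 7 cytosolic chaperonin genes above background on every array had rotational differences from −0.10 (Cct4) to −0.02 (Cct5), all below 0 (6 of 7 with quantile normalization), with none passing the test. In the percussion model 6 of the 7 were above 0, or 5 with median scaling, again with none passing. Cct4 had the smallest p there, with −0.22, −0.13, 0.02 and 0.00 in the shams and 0.31, 0.19 and −0.06 after trauma. A trauma array lay among the shams, and the difference was 0.23 ± 0.09 (SE; limma adjusted p = 0.385).

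Counts of genes whose groups did not overlap at all stood near those of all genes. After rotational trauma 1 chaperone gene lay wholly above its sham and 8 wholly below, 12.2% of the 74, against 15.8% of all genes (4.52% above and 11.3% below). Those below were Cct3, Dnaja3, Dnaja4, Dnajc2, Dnajc27, Hspb8, Hspb9 (not above background after trauma) and Hspd1-ps21. After percussion trauma 8 lay wholly above and 0 below, 10.8%, against 9.99% of all genes (6.94% above and 3.05% below), namely Dnaja3, Dnajc12, Dnajc22, Dnajc3, Dnajc7, Hspa2, Hspb2 and Hspd1-ps21.

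Other measures moved with these comparisons. Summed on the linear scale in units of the array's 75th percentile, 7 of 8 reactive astrocyte markers came to 2.88 to 3.19 in the rotational shams and 3.55 to 6.12 after rotational trauma, and to 2.76 to 3.42 in the percussion shams and 4.97 to 8.46 after percussion trauma. The sum of 9 of 10 meningeal markers was 6.58 to 12.2 and 14.5 to 28.6 in the rotational groups, and 6.0 to 13.3 and 18.2 to 38.2 in the percussion groups. Both sums were higher in every trauma array than in every sham of its model. Gfap, the best known of the reactive astrocyte markers, went against its sum after rotational trauma, with −0.37 ± 0.33 (SE), and was 0.99 ± 0.31 after percussion trauma. The sum of 7 of 8 mural cell markers was 2.50 to 2.94 in the rotational shams and 3.31 to 4.97 after trauma, and 3.44 to 4.33 and 4.29 to 7.64 in the percussion groups, which just overlapped. All 7 were above 0 in both models (medians 0.28 and 0.53). Of the 6 small heat shock genes kept in the set, 3 were above 0 after rotational and 5 after percussion trauma (medians −0.06 and 0.22). The 3 of 7 choroid plexus markers kept were above 0 in both (medians 1.17 and 1.29), with sums of 0.154 to 0.817 and 0.422 to 1.04 in the rotational and 0.155 to 0.431 and 0.420 to 1.29 in the percussion groups. Striatal markers, 7 of 8 kept, were below 0 after rotational trauma (median −0.47) and lay around 0 after percussion trauma (median −0.05). Their part in the values of the chaperone genes was not tested. In whole tissue, more or fewer cells of a type and more or less RNA per cell cannot be told apart.

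The differences between models were tested directly, as the rotational trauma effect minus the percussion trauma effect. None of the 74 genes passed (limma, smallest adjusted p = 0.279), and over all genes the share was 0%. At an unadjusted p under 0.05 there were 6, against 9.25% of all genes (7.71% below 0): Dnaja3, Dnajc12, Hspd1-ps21, Hspb2, Hspb9 and Cct4, each of them below 0. The value of Hspb9 has no sure size, since its probe was above background on no rotational trauma array and on 1 percussion sham, and it passed the filter only through the groups where it was bright. Dnaja3 led with −0.43 ± 0.11 (SE; unadjusted p = 0.00279), followed by Dnajc12 with −0.22 ± 0.08 (unadjusted p = 0.0129). The other Dnaja3 probe gave −0.15 ± 0.16. With no filter on dim probes the adjusted p of Dnaja3 was 0.0358, where 14.3% of all genes passed, and over its alternatives it ranged from 0.0358 to 0.547. Both trauma differences were above 0 for 12 genes and below 0 for 17, and they had opposite signs for 45. Within each model trauma and column went together, in opposite orders on the slides. Any effect of the column enters both trauma comparisons and this difference, and cannot be told apart from that of trauma.

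More genes passed between the 2 sham groups than between trauma and sham. Between percussion and rotational shams 24 of the 74 chaperone genes passed the test (32.4%), against 24.8% of all genes, and in all 24 the groups did not overlap. In the whole set the shams did not overlap for 40 genes (54.1%), 33 lower and 7 higher in the percussion shams, against 43.0% of all genes (27.9% lower and 15.1% higher). Of the 24 that passed, 20 were lower in the percussion shams (27.0%, against 15.7% of all genes) and 4 were higher (5.41%, against 9.16%). The median difference, percussion sham minus rotational sham, was −0.14 over the 74 genes and −0.08 over all genes. Leaving out a rotational sham array lowered the count to 14 (replicate 1), 14 (replicate 2) and 12 (replicate 3), and no other array brought it below 17. These groups differ in operation, slide, scan and column of the slide at once (rotational shams in column 1, percussion shams in column 2), and those cannot be told apart. Markers of the striatum, which lies under the cortex, differed as well: 7 of 8 were kept, all 7 were lower in the percussion shams, with a median of −0.98, and 3 passed the test. Their sum was 8.47 to 23.8 in the rotational shams and 8.20 to 8.68 in the percussion shams, and its part in the chaperone genes was not tested.

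**Figure D4:**
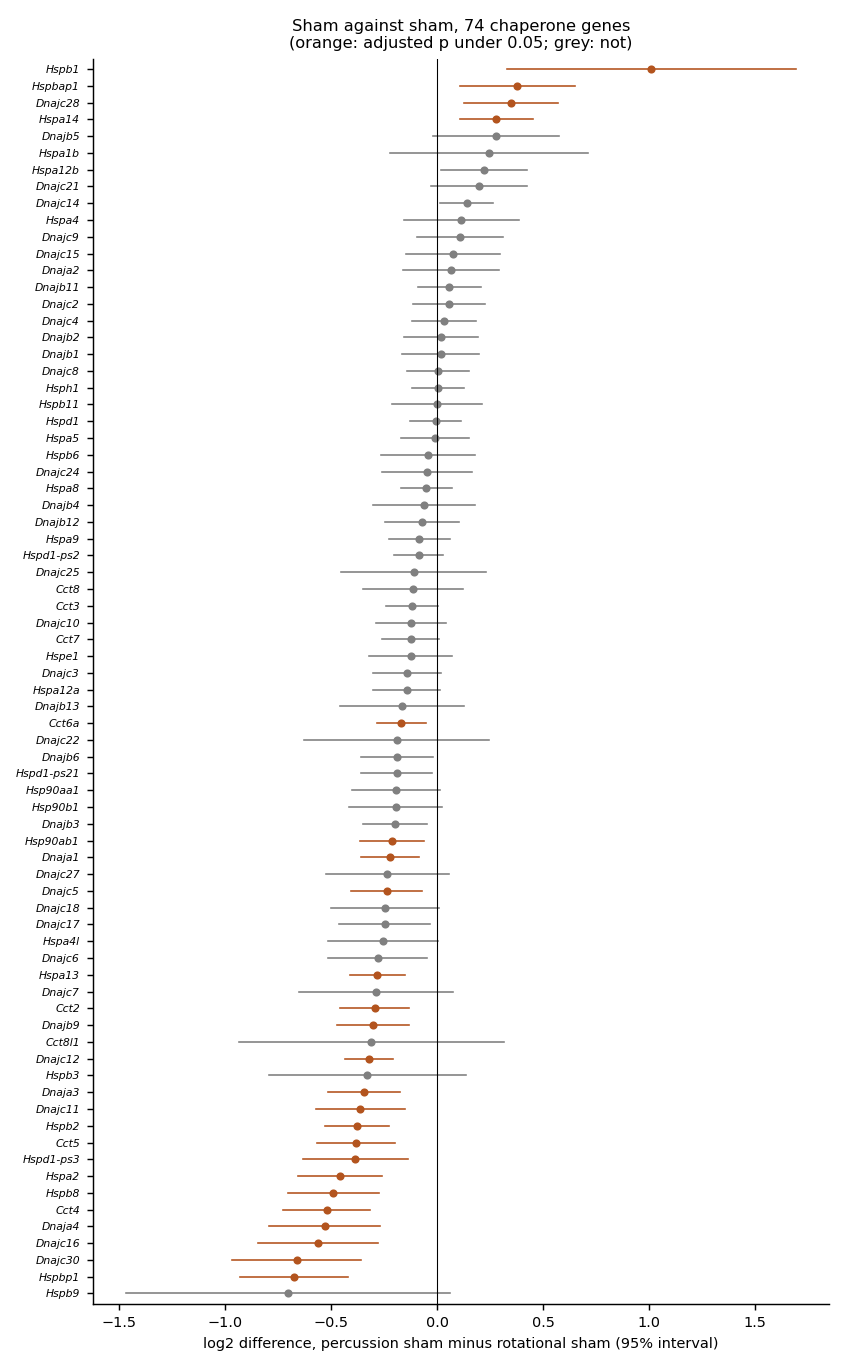
Log2 difference between percussion sham and rotational sham (horizontal axis) for the 74 chaperone genes, sorted, with 95% intervals; orange marks an adjusted p under 0.05 (limma) and grey the others. Hspb1 stands highest at 1.01, and among the called genes Hspbp1 is lowest at −0.68.

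Among the genes that were lower, Hspbp1, which removes nucleotide from Hsp70, read 0.02, 0.23 and 0.10 in the rotational shams and −0.79, −0.55, −0.47 and −0.42 in the percussion shams. All 4 percussion shams lay below all 3 rotational ones, by 0.68 ± 0.12 in the mean (SE; 1.60-fold, limma adjusted p = 0.00361). The percussion trauma arrays, which share the slide of the percussion shams, read −0.38, −0.15 and −0.60. Dnajc30, a J protein of mitochondria, was lower with −0.66 (limma adjusted p = 0.00811), Dnajc16 with −0.56 and Dnaja4 with −0.53. Hspd1-ps3 (−0.39), Dnajc11 (−0.36), Dnajb9 (−0.30) and Dnajc5 (−0.24) also passed as lower. Hspbp1, Dnajc30 and Dnaja4 kept the call under all 23 alternatives.

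Of the cytosolic chaperonin, which folds actin and tubulin, 4 of the 8 genes kept passed, all 4 lower (against 15.7% of all genes). Cct4 read 0.42, 0.49 and 0.40 in the rotational shams and at most 0.02 in the percussion shams given above, a difference of −0.52 ± 0.09 (SE; limma adjusted p = 0.00424). Cct5 (−0.38), Cct2 (−0.29) and Cct6a (−0.17) were the others, while Cct3, Cct7, Cct8 and Cct8l1 did not pass. The 7 genes above background on every array had differences below 0 under the main scaling and under the 4 other scalings tried. Of the Hsp90 genes, Hsp90ab1 passed with −0.21 ± 0.07 (limma adjusted p = 0.0428), and of the Dnaja genes Dnaja1, Dnaja3 and Dnaja4 did, all lower. The other Dnaja3 probe differed by −0.10, against −0.35 for the probe used. Cct6a passed under 7 of the 23 alternatives and Hsp90ab1 under 8.

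Hspa2 and Hspa13 were the Hsp70 genes that were lower. Hspa2, with the values given above, differed by −0.46 ± 0.09 (SE; limma adjusted p = 0.00642), and Hspa13, an Hsp70 of microsomes, by −0.28 ± 0.06 (limma adjusted p = 0.0081). Hspa8, Hspa5 and Hspd1 differed by −0.05, −0.01 and −0.01. Dnajc12 had the smallest adjusted p of the set, 0.00255, with a difference of −0.32 ± 0.05. Hspb2 differed by −0.38 and Hspb8 by −0.49, and both passed. Dnajc12, Hspb2, Dnaja3 (on its brightest probe) and Cct4 were thus low in the same percussion shams against which they stood higher after percussion trauma. The 2 comparisons share those 4 arrays.

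Of the 4 genes that were higher, Hspb1 had the largest difference. The percussion shams, at −0.52, −0.32, −0.87 and −0.20, all lay above the rotational shams, at −1.44, −1.68 and −1.35, by 1.01 ± 0.31 (SE; 2.01-fold, 95% interval 1.25 to 3.23, limma adjusted p = 0.0363). The mural cell sums given above did not overlap between the shams and were higher in the percussion shams. Of the 6 small heat shock genes kept in the set, the other 5, Hspb2 (−0.38) among them, lay below 0 there. The reactive astrocyte sums overlapped, and the part of either sum was not tested. Hspbap1, which binds Hspb1, was higher by 0.38 ± 0.12 (limma adjusted p = 0.045), Dnajc28 by 0.35 and Hspa14, part of the ribosome-associated complex, by 0.28. Of the 23 alternatives, Hspb1 kept its call under 15, Hspbap1 under 10, Dnajc28 under 13 and Hspa14 under 18. The difference of Dnajc28 fell as low as 0.04 among them.

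How far a probe lies from the 3′ end of its transcript also separated these groups. The labelling began from the poly(A) tail with an oligo-dT primer, so probes further 5′ depend on longer copies. Hspa8 has 4 probes, which show this because they read 1 transcript at different distances. Their sequences follow in order from the 5′ end, on the plus strand in rn4 coordinates as the array files give them, with the 20 bases that the first 2 probes share in capitals. The spans of probes 1 and 3 are longer than the probe itself. No rn4 annotation was used here, so their exons are not named.
Hspa8 probe 1, chr8:43785314-43785489: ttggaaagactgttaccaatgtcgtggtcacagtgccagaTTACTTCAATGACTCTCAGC
Hspa8 probe 2, chr8:43785470-43785529: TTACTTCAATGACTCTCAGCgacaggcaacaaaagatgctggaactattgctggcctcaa
Hspa8 probe 3, chr8:43787204-43787517: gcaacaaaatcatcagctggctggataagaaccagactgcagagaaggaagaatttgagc
Hspa8 probe 4, chr8:43787518-43787576: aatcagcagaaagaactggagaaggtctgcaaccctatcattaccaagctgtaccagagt

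Between the shams these probes differed by −0.62, −0.63, −0.13 and −0.05 in that order, the last being the probe used for the gene. Probe 1 read 2.23, 2.36 and 2.23 in the rotational shams and 1.33, 1.67, 1.81 and 1.85 in the percussion shams, with no overlap. Probe 4 overlapped between the same arrays. Probe 1 minus probe 4 came to −4.32, −4.20 and −4.35 in the rotational shams and −5.16, −4.93, −4.64 and −4.68 in the percussion shams, and to −4.38, −4.30 and −4.44 after rotational and −4.66, −4.31 and −4.95 after percussion trauma. The 2 sham groups did not overlap in this difference, so the size of the sham difference in Hspa8 depended on the probe read.

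The same was seen over the array. For 2205 genes with kept probes at least 200 bases apart, the 5′-most probe was lower relative to the 3′-most probe in the percussion shams than in the rotational shams in 66.0% of genes, by 0.13 in the median. Among the chaperone genes this held for 7 of 10. In the trauma comparisons the share was 66.6% for rotational and 35.4% for percussion trauma, with medians of −0.05 and 0.07. The median of the 5′ minus 3′ difference per array, after each gene's mean over arrays was subtracted, ran from 0.05 to 0.07 in the rotational shams, −0.01 to 0.04 after rotational trauma, −0.07 to −0.06 in the percussion shams and −0.04 to 0.05 after percussion trauma. The percussion shams thus lay below all other arrays. The part of this in the chaperone genes called between the shams, and in Dnajc12 and Hspb2 after percussion trauma, was not tested.

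**Figure D5:**
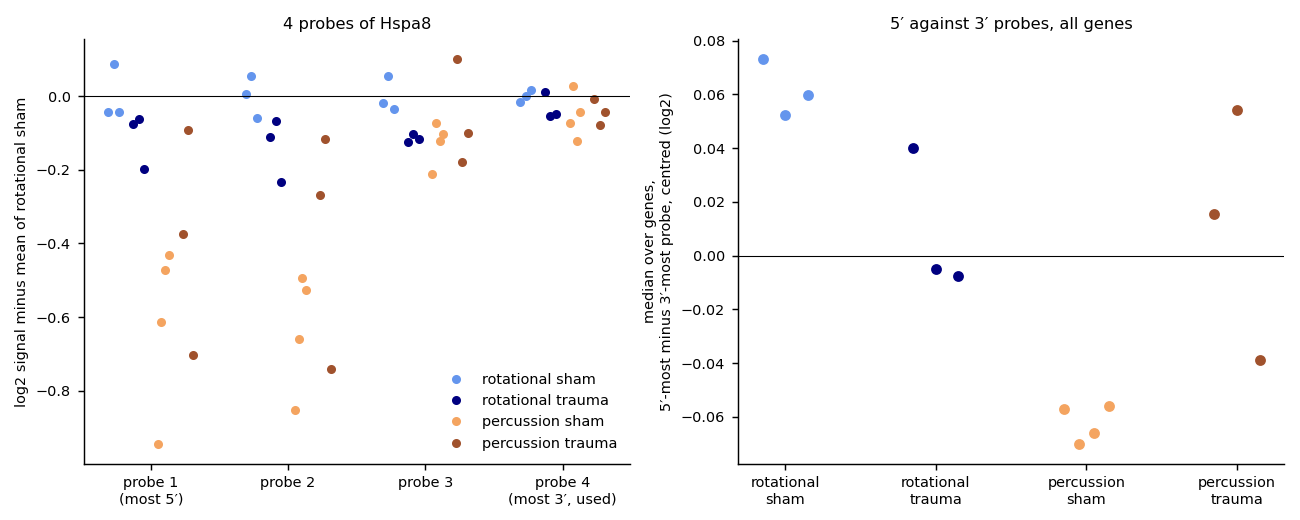
Left, log2 signal of the 4 Hspa8 probes on each array, minus the mean of the rotational shams; right, the median 5′ minus 3′ probe difference over 2205 genes on each array, with each gene's mean subtracted. The percussion shams lie lowest on the right (−0.07 to −0.06), and on the left they are low for the probes nearest the 5′ end.

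Of the chaperone genes, 12 had several kept probes, and the sign of the difference was not the same for all of them in 5 genes in the rotational comparison, 4 in the percussion comparison and 5 between the shams. The widest disagreement between the shams was in Hspa12b, an Hsp70-like gene of endothelium, with 0.22 from the brighter probe and −0.58 from the other. Hsp90ab1 read −0.21, −0.21 and −0.38 on its 3 probes.

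Other genes of the chaperone network were read from lists of regulators and partners. No gene of these lists passed the test in either trauma comparison or in the difference between models. Of 27 heat shock factors and cytosolic co-chaperones kept of 28 listed, the median was −0.03 after rotational and 0.02 after percussion trauma. Between the shams 7 passed (25.9%, against 24.8% of all genes): 3 were higher, Hsf1 (0.46), Ahsa2 (0.37) and Chordc1 (0.34), and 4 lower, Fkbp8 (−0.34), Stub1 (−0.30), Ptges3 (−0.21) and Bag5 (−0.21). Hsf1, the main heat shock factor, differed by 0.05 after rotational and 0.03 after percussion trauma. Bag3, the exchange factor that works with Hspb8, had the smallest p after rotational trauma, with 0.36 ± 0.14 (SE; limma adjusted p = 0.622).

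Cryab and Serpinh1 lay outside the name rule, on a list of 5 genes of which 3 were kept. They stood out most in size of those 3 after trauma, though neither passed. Cryab (alpha B crystallin, abundant in oligodendrocytes) had a mean of 2.63 ± 0.25 (SD, n = 3) in the rotational shams and 3.28 ± 0.09 (SD, n = 3) after trauma, a difference of 0.65 ± 0.17 (SE; limma adjusted p = 0.449), and −0.19 ± 0.16 in the percussion model. The direct test of that difference gave 0.84 ± 0.23 (limma adjusted p = 0.317). The 8 oligodendrocyte and myelin markers had medians of 0.40 after rotational trauma (7 of 8 above 0), 0.05 after percussion trauma and 0.43 for the difference between models, with none passing, and sums of 105 to 127 and 111 to 135 in the rotational and 103 to 122 and 114 to 120 in the percussion groups. Their part in Cryab was not tested. Serpinh1 (Hsp47, the collagen chaperone of the endoplasmic reticulum) was higher in every trauma array than in every sham of its model, by 0.48 ± 0.16 and 0.43 ± 0.15 (SE; limma adjusted p = 0.56 and 0.318), where the meningeal sums given above were higher too.

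Of 25 genes of endoplasmic reticulum chaperones and the unfolded protein response kept of 28 listed, the medians were 0.00 after rotational and 0.01 after percussion trauma. Pdia4, a protein disulphide isomerase, lay lowest after rotational trauma at −0.66 ± 0.21 (SE; limma adjusted p = 0.539). Between the shams 2 of the 25 passed the test, Pdia6 (−0.38) and Sel1l (−0.37), as lower (8%, against 15.7% of all genes). None passed as higher, against 9.16%, and by sign alone 16 of the 25 lay below 0. Of 12 genes of mitochondrial proteostasis, 4 passed the test between the shams as lower in the percussion shams, against 15.7% of all genes. They were Timm44 (−0.88), Clpb (−0.37), Hscb (−0.23) and Grpel1 (−0.20). None passed as higher, against 9.16% of all genes. By sign alone, 7 of the 12 lay above 0 and 5 below. Of 11 partners of the chaperonin and prefoldin subunits kept of 14 listed, 1 passed between the shams, as lower (9.09%, against 15.7% of all genes). Tbce lay lowest there (−0.64). Tcp1, the Cct subunit outside the name rule, differed by 0.12 after rotational trauma.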

How the data were processed

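Total RNA of frontal cortex was labelled with Cy3 from an oligo-dT primer (1 label reads Cy4) and hybridised to Agilent rat arrays, per the labels' protocols. The deposited scanner files hold spot intensity, read as the background-corrected processed signal that Agilent Feature Extraction gave, per the file headers. The authors also deposited a table of log2 values, used as an alternative. Probe positions are rn4, per the file headers.

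Spots flagged as outliers were left out, spots of a probe averaged on log2, and each array's 75th percentile over non-control spots subtracted. A probe was kept if well above background on all arrays of at least 1 group, and a gene read from its brightest kept probe. limma 3.58.1 (R 4.3.3) fitted 4 group means over 13 arrays (residual df 9), with Benjamini-Hochberg adjustment over 17251 genes and a threshold of 0.05. Intervals are 95%, from the moderated statistic. Tables were made with Python 3.11.15 and pandas 2.3.3, and the fit was tested on simulated data. Array columns of other samples numbered 0.

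Chaperone genes named were all those called in the main fit, some of those of smallest p, and the main member of each family. Gene symbols and promoters came from RefSeq (GRCr8). The members, lists and tests were chosen with earlier results of these data known. Other backgrounds, scalings, filters, probe and name rules, blocks and the loss of each array were tried as alternatives.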

Additional observations from a re-analysis of the deposited data

Results flagged for a closer look

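In the group of 4 percussion shams, 6 of the 74 chaperone genes had 1 array set apart from the other 3 by more than Dixon's 95% critical value for groups of 4. Chance gives about 1 such gene in 20, and 6.40% of all genes had one. Percussion sham 1 was the low array for 3 of them: Cct5 at 0.1645 (others 0.417 to 0.455), Dnaja2 at 1.436 (others 1.67 to 1.69) and Dnajc3 at −1.3 (others −1.15 to −1.14). Percussion sham 2 was high for Dnajc15 at 1.23 (others 1.01 to 1.03) and for Hspd1 at 3.254 (others 3.21 to 3.21), where the whole spread of the group is small. Percussion sham 4 was high for Dnajb4 at −1.793 (others −2.18 to −2.13). No cause was tested.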

How the results depend on the processing

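For the counts after rotational trauma, the 10 alternatives that kept all arrays left 0 chaperone genes called, and so did leaving out each array in turn (0 to 0). With no filter on dim probes 5 genes of the 81 passed after percussion trauma, against 11.0% of all genes. Dnajc12 and Hspb2 were higher, and Dnajc5b, Dnajc5g and Hspa1l lower, the last 3 not above background on any array. In the difference between models 5 passed, against 14.3% of all genes (Dnaja3, and Dnajb8, Dnajc5b, Dnajc5g and Hspa1l). Leaving out each array in turn gave 0 to 0 in both. Between the shams, leave-one-out counts ran from 12 to 25. There the count with the replicate number as a block (replicate block) was 3, all lower, and all genes called fell from 4284 to 441, while the other comparisons stayed at 0. The labels do not say whether replicate numbers pair samples. Deviations of same-numbered sham and trauma arrays correlated at 0.11, 0.26 and 0.02 in the rotational and 0.28, −0.02 and −0.01 in the percussion model. These correlations lie within a model. They cannot decide on the block between the shams, which joins rotational and percussion shams of the same number. The other alternatives gave 16 to 26 called between the shams. Of all genes called there, 63.1% were lower, against 73.5% with normexp, 52.9% with quantile, 55.6% with median scaling and 57.6% in the authors' deposited table, and chaperone genes split 20 lower and 4 higher, 23 and 2, 16 and 4, 16 and 4, and 16 and 3. The median of all genes there moved from −0.08 to −0.10 with normexp. The cause of these changes was not tested.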
